A study of Homo sapiens with 4 samples.

Results

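The aminoacyl-tRNA synthetases are the enzymes that load each transfer RNA with its amino acid. All 36 genes named for this family were found in the deposited table of 58735 genes, 20 coding for the cytosolic enzymes and 16 for the mitochondrial ones, whose names end in 2. They were taken by gene name, and the family was chosen with earlier results of these data known. All 36 were among the 14429 genes with a mean level of at least 1 FPKM (fragments per 1000000 fragments and per kilobase). Their mRNA was measured by RNA-seq in 2 human colorectal cancer lines, HCT116 and LOVO, both labelled wild type, with 1 library of attached (adherent) cells and 1 of spheroids from each. The adherent cells were untreated and grew in RPMI medium with serum. The spheroids formed in serum-free medium with growth factors and the platinum drug oxaliplatin. The published protocol has the drug at 1 μg/ml, and the labels, which name no drug, have 1 mg/ml. Growth form, medium and drug therefore changed together and cannot be told apart here.

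Synthetases work in the cytosol, where they feed the ribosomes that read nuclear mRNA, and in mitochondria, where a second set encoded in the nucleus feeds the mitochondrial ribosomes. GARS and KARS each give both a cytosolic and a mitochondrial enzyme from 1 gene, and EPRS charges both glutamate and proline. When amino acids run short or the endoplasmic reticulum is stressed, the transcription factor ATF4 is known to bind a C/EBP-ATF response element in many genes of amino acid supply, several cytosolic synthetases among them.

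The reads on genes numbered 15483569 to 20429147 per library, and the members' reads made up 0.304% to 0.751% of them for the cytosolic list. Mitochondrially encoded genes took 6.77% of the reads from attached HCT116 cells and 11.1% from their spheroids, against 3.65% and 3.97% in the LOVO pair, and their part in the differences below was not tested. Markers of colon epithelium were checked against the labels. HCT116 libraries held EPCAM at 85.6 and 79.3 FPKM and CDH1 at 31.1 and 31.1 FPKM. The libraries labelled LOVO went against that label, with EPCAM at 0.93 and 1.5 FPKM and CDH1 at 0.117 and 0.00805 FPKM. CDX2 was at 0 in both, against 3.84 and 3.12 FPKM in HCT116, although KRT8 and KRT18 were present. VIL1, CDX1, CDH17 and LGALS4 were at or under 0.381 FPKM in all 4 libraries and do not separate the lines. The summed level of the 11 epithelial markers was 1754 and 1288 FPKM in HCT116 and 326.8 and 187.1 FPKM in the LOVO pair. The summed level of 5 fibroblast markers was 5.52 and 15.9 FPKM in HCT116 and 52.5 and 71.6 FPKM in the LOVO pair. LUM reached 31.4 and 50.4 FPKM and DCN 10.4 and 9.97 FPKM in the LOVO pair, and COL3A1 0.811 and 5.13 FPKM. COL1A1 went the other way among spheroids, at 5.51 and 15.5 FPKM in HCT116 and 9.89 and 6.10 FPKM in the LOVO pair. COL1A2 was at or under 0.00534 FPKM in all 4 libraries. The summed level of 3 endothelial markers was 0.254, 0.753, 1.13 and 7.84 FPKM in the same order, and that of 5 immune markers stayed at or under 0.918 FPKM in all 4 libraries. Every value below for LOVO is that of the libraries labelled LOVO, and each HCT116 value stands without them.

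The promoter sequences are given first, since the element that ATF4 binds is short and can be read directly. Promoter windows from RefSeq on GRCh38.p14 (250 bases before to 50 after a start site) were at hand for 16 of the 20 cytosolic and 14 of the 16 mitochondrial genes. DARS, LARS, VARS, YARS, AARS2 and VARS2 had none. The C/EBP-ATF response element, searched as TGATGNAA on both strands, was found in 7 of the 16 cytosolic genes. The search fixed every letter of the match but N, which stands for any base, so the matches are alike by construction. The stretches around these 7 matches are shown in the direction of the gene, with the match in capitals.
AARS (chr16:70289671-70289708, minus strand): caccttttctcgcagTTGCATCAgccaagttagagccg
CARS (chr11:3057407-3057436, minus strand): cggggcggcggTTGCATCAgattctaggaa
GARS (chr7:30594830-30594867, plus strand): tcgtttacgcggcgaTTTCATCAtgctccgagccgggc
IARS (chr9:92293698-92293725, minus strand): cgcattttcagcgcgTTGCATCAcctcc
MARS (chr12:57488053-57488082, plus strand): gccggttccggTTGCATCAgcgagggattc
NARS (chr18:57621804-57621833, minus strand): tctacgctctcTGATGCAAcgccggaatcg
TARS (chr5:33440956-33440985, plus strand): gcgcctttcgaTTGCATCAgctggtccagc
In 6 of these the element lay on the opposite strand to the gene, and in NARS on the same strand. The match began 187 bases before the start site in AARS, 33 before it in GARS and 13 before it in IARS. It began within 4 bases of the start site in CARS, MARS and TARS, and 14 bases after it in NARS.

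These windows made up 7 of the 21 cytosolic windows (33.3%), 1 of the 18 mitochondrial windows (5.56%) and 1270 of all 35116 windows (3.62%). The mitochondrial match was in YARS2, 197 bases before the start site.
YARS2 (chr12:32756072-32756109, minus strand): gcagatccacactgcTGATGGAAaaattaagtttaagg
The E-box CACGTG, the site of MYC and related factors, was searched on both strands in the same windows and does not overlap the other motif. It was found in IARS alone of the cytosolic genes and in CARS2, EARS2 and MARS2 of the mitochondrial ones. That was 1 of the 21 cytosolic windows (4.76%) and 4 of the 18 mitochondrial ones (22.2%), against 7.26% of all windows. EARS2 gave 2 of these 4, as overlapping windows that hold the same site. By gene it was 1 of 16 cytosolic and 3 of 14 mitochondrial genes, against 8.77% of all genes. A match describes the letters of a window and says nothing of binding in these cells.

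The mRNAs of the cytosolic enzymes were lower in spheroids than in adherent cells, in HCT116 without exception and in LOVO with 2 exceptions. In HCT116 all 20 had a log2 fold change below 0, against 53.4% of all genes compared, with a median of -0.68 against -0.03 for all genes. In LOVO 18 of 20 were below 0, against 53.5% of all genes, with a median of -1.32 against -0.06. A fold change here is the log2(FPKM + 1) of the spheroids less that of the adherent cells, so the 1 FPKM added shrinks the differences of low genes. Summed over the list, the cytosolic level went from 974.5 FPKM in adherent HCT116 cells to 555.4 FPKM in the spheroids, which is 57.0% of the adherent level. In LOVO it went from 1630 to 636.0 FPKM, or 39.0%. Each condition had a single library, so these differences lack replicate error and carry no p-value within a line. In bulk RNA, fewer cells of a type and less RNA per cell cannot be told apart.

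**Figure D1:**
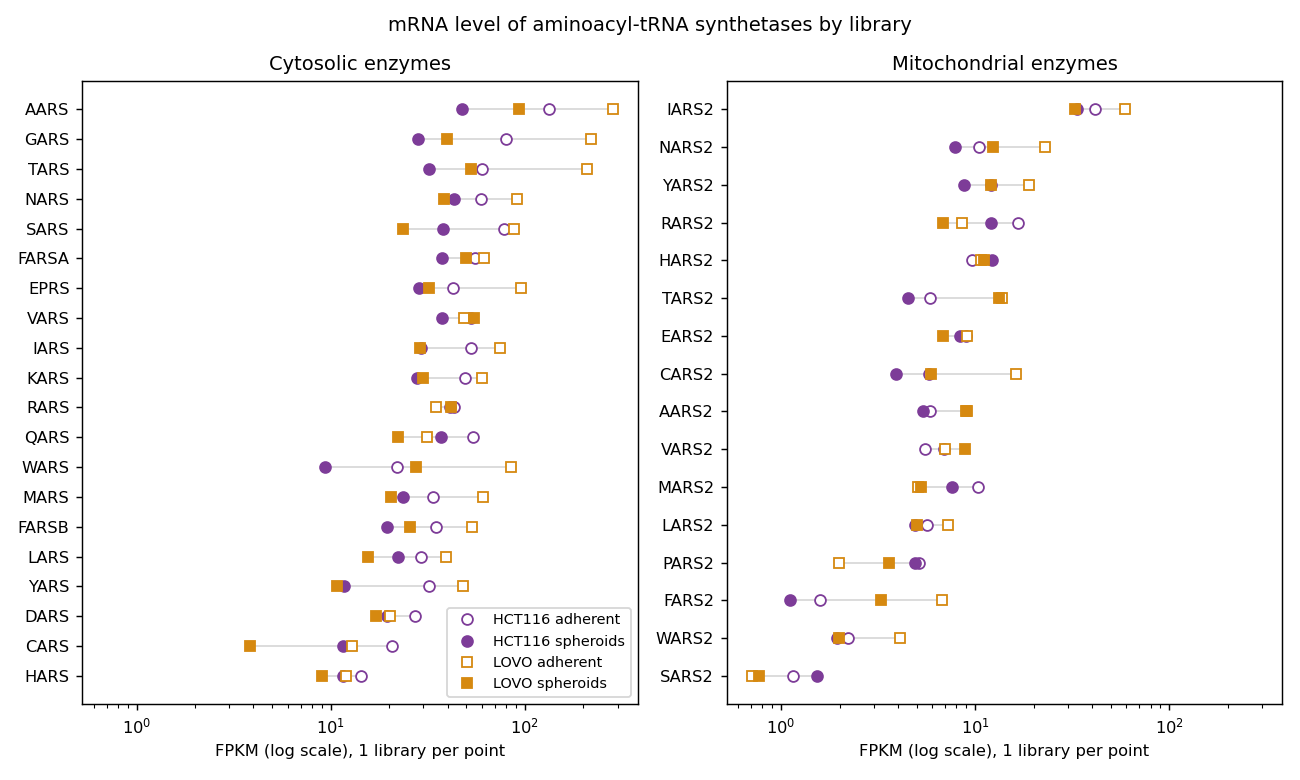
Level of each synthetase mRNA in FPKM on a log axis, 1 library per point, with cytosolic enzymes on the left and mitochondrial enzymes on the right, each ordered by mean level. Filled spheroid symbols sit left of open adherent symbols for all 20 cytosolic genes in HCT116 and for 18 of 20 in LOVO, and the mitochondrial genes lie lower and spread wider, the highest standing 30.3 to 83.3 times above the lowest in each library.

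A log2 fold change below -1, a more than 2-fold lower value on this scale, was reached by 5 members in HCT116, against 3.33% of all genes. They were AARS, GARS, SARS, WARS and YARS, which charge alanine, glycine, serine, tryptophan and tyrosine. The same 5 were below -1 in LOVO too, where 14 members were, against 7.85% of all genes. Being below -1 in both lines held for 0.88% of all genes. No member was above 1 in either line, against 2.19% of all genes in HCT116 and 8.57% in LOVO. With the values rescaled to TPM (transcripts per 1000000), 6.74% of all genes were below -1 and 15.7% above 1 in LOVO, and 13 members were below -1 and none above 1.

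GARS showed the largest difference of all 36 members in LOVO. The gene (ID ENSG00000106105) spans bases 30594681 to 30634033 of chromosome 7 (GRCh38, plus strand). Its level was 79.7 FPKM in attached HCT116 cells and 28.0 in their spheroids, and 219.6 FPKM in attached LOVO cells and 39.6 in theirs. The spheroids thus held 35.2% and 18.0% of the adherent level, log2 fold changes of -1.47 and -2.44.

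AARS had the highest level of the 20 cytosolic genes in all 4 libraries. Its gene is on the minus strand of chromosome 16, from 70252295 to 70289543 (ENSG00000090861), and shares no exonic base with another annotated gene. It measured 133.5 FPKM in attached HCT116 cells and 47.4 in the spheroids, and 283.4 and 93.3 FPKM in LOVO. Of the 5 it differed least between the lines, with log2 fold changes of -1.47 and -1.59.

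YARS is on the minus strand of chromosome 1, from 32775237 to 32818153 (ENSG00000134684). It measured 32.2 FPKM in adherent HCT116 cells and 11.7 in the spheroids, and 48.0 and 10.8 FPKM in LOVO, log2 fold changes of -1.39 and -2.06. The adherent levels of the lines differed while the spheroid levels were close to each other.

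SARS, also on chromosome 1 (plus strand, 109213918 to 109238169, ENSG00000031698), went from 77.7 to 37.7 FPKM in HCT116 and from 87.7 to 23.5 FPKM in LOVO. Its log2 fold change of -1.03 in HCT116 was the one nearest to the threshold among the 5, and with all values centred on the median gene it was -0.99, which left 4 members below -1 in both lines. In LOVO it was -1.86.

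WARS, on the minus strand of chromosome 14 from 100333788 to 100376805 (ENSG00000140105), is known as an interferon-inducible synthetase. It went from 21.8 to 9.37 FPKM in HCT116 and from 85.0 to 27.4 FPKM in LOVO, log2 fold changes of -1.14 and -1.60. Of its exonic bases 10.6% also belong to exons of other genes, and how reads there were assigned is not given in the sources used here.

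A further 8 cytosolic genes were below -1 in LOVO but between -0.37 and -0.88 in HCT116. TARS, the threonine enzyme, went from 60.1 to 32.1 FPKM in HCT116 and from 209.4 to 52.9 FPKM in LOVO, log2 fold changes of -0.88 and -1.96. Its adherent level was 3.49 times as high in LOVO as in HCT116. EPRS went from 42.6 to 28.4 FPKM in HCT116 and from 95.2 to 32.2 FPKM in LOVO (-0.57 and -1.53). MARS, the methionine enzyme that also supplies the initiator tRNA, went from 33.8 to 23.5 FPKM and from 61.0 to 20.5 FPKM (-0.51 and -1.53). MARS shares 13.3% of its exonic bases with other genes, DDIT3 on the opposite strand among them, and DDIT3 itself went from 189.3 to 9.11 FPKM in HCT116 and from 36.1 to 11.9 FPKM in LOVO. Its part in the MARS value was not tested. CARS, for cysteine, was the lowest cytosolic gene in LOVO spheroids at 3.85 FPKM, from 12.8 FPKM in adherent cells, and went from 20.7 to 11.5 FPKM in HCT116 (-0.80 and -1.51).

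The other 4 of these 8 charge isoleucine, leucine, asparagine and, as 1 of 2 subunits, phenylalanine. IARS went from 52.6 to 29 FPKM in HCT116 and from 74.8 to 28.8 FPKM in LOVO (-0.84 and -1.35). LARS, known as a leucine sensor of the mTORC1 pathway, went from 29.1 to 22.2 and from 39.0 to 15.5 FPKM (-0.37 and -1.28). The IARS level of LOVO less that of HCT116 was 0.50 on the log2 scale in adherent cells and -0.01 in spheroids. NARS went from 59.7 to 43.1 and from 91.5 to 38.3 FPKM (-0.46 and -1.23). FARSB, the beta subunit of the phenylalanine enzyme, went from 34.7 to 19.5 and from 53.3 to 25.5 FPKM (-0.80 and -1.03). FARSB was the last inside the threshold in LOVO and KARS, the lysine enzyme, the first outside it at -0.997, with 60.3 FPKM in adherent cells and 29.7 in spheroids. In HCT116 KARS went from 48.9 to 27.7 FPKM (-0.80), and TARS at -0.88 was the first outside the threshold.

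The remaining 6 cytosolic genes were above -0.6 in both lines. FARSA, the alpha subunit of the phenylalanine enzyme, went from 55.4 to 37.6 FPKM in HCT116 and from 61.9 to 49.6 FPKM in LOVO (-0.55 and -0.31). In LOVO it thus differed by less than its partner subunit FARSB. QARS, for glutamine, went from 54.1 to 37.1 and from 31.5 to 22.3 FPKM (-0.53 and -0.48). DARS, for aspartate, went from 27.3 to 19.5 and from 20.2 to 17.0 FPKM (-0.47 and -0.23). HARS, for histidine, had the lowest level of the list in adherent cells of both lines, at 14.3, 11.6, 12.0 and 9.01 FPKM in the order of the libraries above (-0.29 and -0.38).

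RARS and VARS were the members of the cytosolic list with opposite signs in the lines. RARS, for arginine, was nearly level in HCT116, at 43.3 and 41.1 FPKM, and higher in LOVO spheroids at 41.8 FPKM than in adherent LOVO cells at 34.9 FPKM (-0.07 and 0.25). VARS, for valine, went from 53.0 to 37.3 FPKM in HCT116 and from 48.3 to 54.5 FPKM in LOVO (-0.50 and 0.17). Reads can bound the counting error of such differences, though not the spread between cultures. The 95% exact counting interval of a gene's log2 ratio (spheroids over adherent cells) held 0 for RARS in HCT116, from -0.15 to 0.00. It lay below 0 for the other 19 cytosolic genes in HCT116 and for 18 in LOVO, and above 0 in LOVO for RARS (0.18 to 0.34) and VARS (0.12 to 0.23). With many reads a small difference also leaves out 0, as for HARS in HCT116 (-0.40 to -0.22). The same count was not made over all genes, so these counts cannot be read as particular to the list.

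**Figure D2:**
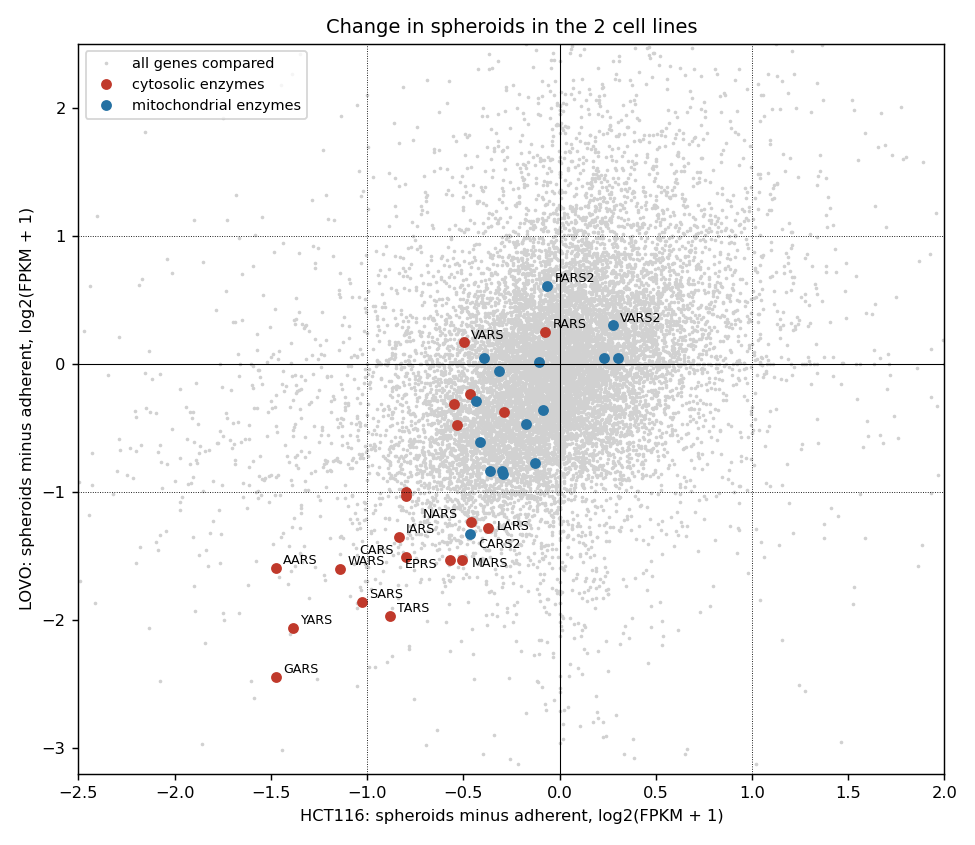
Log2 fold change of spheroids against adherent cells in HCT116 (horizontal) and LOVO (vertical), with a point per gene, grey for the 14429 genes compared (203 lie outside the axes), red for cytosolic and blue for mitochondrial enzymes. Dotted lines mark -1 and 1, and AARS, GARS, SARS, WARS and YARS are the 5 members below -1 on both axes.

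A few genes carried much of the summed difference. AARS, GARS and SARS accounted for 42.4% of the 419.1 FPKM by which the cytosolic sum was lower in HCT116 spheroids. AARS, GARS and TARS accounted for 53.0% of the 993.7 FPKM in LOVO. The range of cytosolic levels ran from 14.3 to 133.5 FPKM in adherent HCT116 cells and from 9.37 to 47.4 FPKM in the spheroids, so the highest gene stood 9.31 and 5.06 times above the lowest. In LOVO that ratio was 23.6 and 24.2. The median cytosolic level was 46.1 and 28.2 FPKM in HCT116 and 60.7 and 28.1 FPKM in LOVO, higher in LOVO among adherent cells and close to it among spheroids.

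In adherent cells 14 of the 20 cytosolic genes were higher in LOVO, with a median difference of 0.46 on the log2 scale against 0.07 for all genes. In spheroids 10 were higher and 10 lower, with a median of 0.01 against 0.04. The genes above 1 in adherent LOVO against adherent HCT116 cells were WARS (1.91), TARS (1.78), GARS (1.45), EPRS (1.14) and AARS (1.08), 5 of 20 against 17.4% of all genes. Of these only WARS was above 1 between the spheroids (1.45), where 17.7% of all genes were, and CARS was below -1 there (-1.37). No test of these differences was possible with 1 library each, and the epithelial and fibroblast markers given above differed between the same libraries.

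The cytosolic enzymes were also split by structure. The 10 class I enzymes, which share a Rossmann-fold catalytic domain, had medians of -0.55 (HCT116) and -1.43 (LOVO). The 10 class II enzymes had -0.80 and -1.13. The 8 enzymes that sit in the multisynthetase complex (DARS, EPRS, IARS, KARS, LARS, MARS, QARS and RARS) had medians of -0.52 and -1.14, and none was below -1 in HCT116 and 4 in LOVO. The 12 other cytosolic genes had -0.84 and -1.55, with 5 and 9 below -1, against 3.33% and 7.85% of all genes. All 5 genes below -1 in both lines therefore lay outside the complex.

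Set beside the promoter sequences shown above, all 7 cytosolic genes with a C/EBP-ATF match were below -1 in LOVO and 2 of them, AARS and GARS, in HCT116, with medians of -1.53 and -0.84. The 9 genes with a window and no match had 4 below -1 in LOVO and 2, SARS and WARS, in HCT116, with medians of -0.997 and -0.567. These splits were not tested, and the ranges overlapped, at -2.44 to -1.23 with a match and -1.86 to 0.25 without one in LOVO. Over all genes 7.85% were below -1 in LOVO and 3.33% in HCT116.

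**Figure D3:**
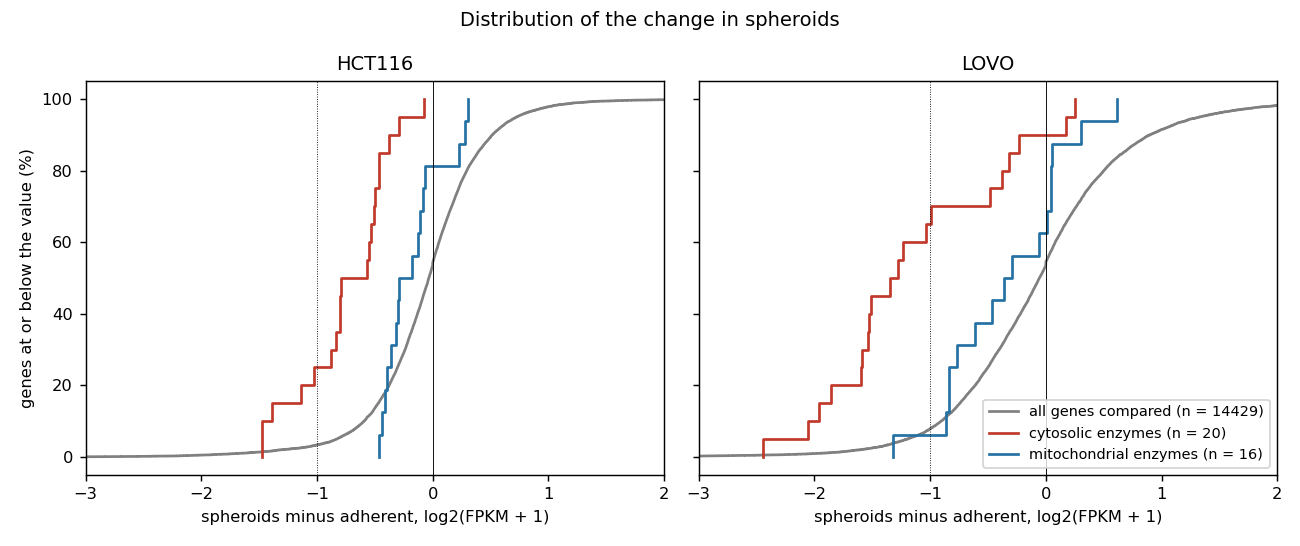
Cumulative share of genes (percent, vertical) at or below each log2 fold change of spheroids against adherent cells (horizontal), for all 14429 genes compared, the 20 cytosolic and the 16 mitochondrial enzymes. At -1 the cytosolic curve has passed 5 of 20 genes in HCT116 and 13 of 20 in LOVO, where the all-gene curve is at 3.33% and 7.85%, and the mitochondrial medians of -0.23 and -0.33 lie between those of the cytosolic enzymes and of all genes.

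The mitochondrial enzymes stood nearer to the bulk of genes. Their medians were -0.23 in HCT116 and -0.33 in LOVO, and 13 and 10 of the 16 were below 0, against 53.4% and 53.5% of all genes. None was below -1 in HCT116, against 3.33% of all genes, and CARS2 alone was in LOVO, at -1.33, against 7.85%. The LOVO counts are near the shares of all genes. With 0.1 FPKM added in place of 1 FPKM, 3 were below -1 in LOVO, against 11.1% of all genes. They were CARS2 (-1.45), FARS2 (-1.02) and WARS2 (-1.01). Their summed level was 148.4 and 125.6 FPKM in HCT116, 84.6% of the adherent level, and 200.9 and 138.5 FPKM in LOVO, 69.0%. The counting interval held 0 for 5 of the 16 genes in HCT116 (AARS2, EARS2, PARS2, SARS2 and WARS2) and for 5 in LOVO (AARS2, HARS2, MARS2, SARS2 and TARS2). This count, too, was not made over all genes.

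IARS2, for mitochondrial isoleucine, had the highest level of the list in all 4 libraries, at 41.5 and 33.5 FPKM in HCT116 and 59.0 and 32.6 FPKM in LOVO (-0.30 and -0.84). It accounted for 35.1% and 42.3% of the summed mitochondrial difference. CARS2, for cysteine, went from 5.79 to 3.91 FPKM in HCT116 and from 16.3 to 5.91 FPKM in LOVO (-0.47 and -1.33). Its adherent level was 2.82 times as high in LOVO. NARS2, for asparagine, went from 10.4 to 7.89 and from 22.8 to 12.3 FPKM (-0.36 and -0.84). YARS2, for tyrosine, went from 12.0 to 8.77 and from 18.8 to 12.0 FPKM (-0.41 and -0.61). In both lines the counting intervals of NARS2 and YARS2 lay below 0.

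FARS2, the single-chain mitochondrial phenylalanine enzyme, was near the lower end in HCT116 at 1.58 and 1.11 FPKM and went from 6.72 to 3.26 FPKM in LOVO (-0.29 and -0.86). WARS2, for tryptophan, measured 2.22 and 1.95 FPKM in HCT116 and 4.10 and 1.99 FPKM in LOVO (-0.13 and -0.77). LARS2, for leucine, measured 5.68 and 4.92 and then 7.26 and 4.99 FPKM (-0.17 and -0.46). All 3 differed by less in HCT116 than in LOVO. RARS2, for arginine, measured 16.7 and 12.1 and then 8.59 and 6.83 FPKM (-0.43 and -0.29). EARS2, for glutamate, measured 8.95 and 8.37 and then 9.09 and 6.85 FPKM (-0.09 and -0.36). TARS2, for threonine, measured 5.86 and 4.53 and then 13.8 and 13.2 FPKM (-0.31 and -0.06, the latter 0.14 in TPM).

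HARS2, SARS2 and VARS2 were above 0 in both lines. HARS2, for histidine, measured 9.68 and 12.2 FPKM in HCT116 and 10.7 and 11.1 FPKM in LOVO (0.31 and 0.05). VARS2, for valine, measured 5.53 and 6.91 and then 7.0 and 8.87 FPKM (0.28 and 0.30), and it was the only member whose counting interval lay above 0 in both lines. SARS2, for serine, rested on 41 to 83 reads per library, at 1.15, 1.53, 0.708 and 0.769 FPKM (0.23 and 0.05). All 3 share exonic bases with other genes, 15.8% for HARS2, 57.0% for SARS2 and 22.0% for VARS2. HARS2 and HARS overlap by 437 exonic bases on opposite strands, and whether the libraries kept the strand is not given in the sources used here.

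AARS2, MARS2 and PARS2 had opposite signs in the lines. AARS2, for alanine, was nearly level, at 5.88 and 5.39 FPKM in HCT116 and 8.95 and 9.04 FPKM in LOVO (-0.11 and 0.01). MARS2, for methionine, measured 10.3 and 7.63 and then 5.04 and 5.24 FPKM (-0.39 and 0.05). PARS2, for proline, measured 5.16 and 4.89 and then 2.0 and 3.58 FPKM (-0.06 and 0.61), the highest log2 fold change of all 36 members, on 84 and 169 reads in LOVO.

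Each amino acid with an enzyme in both lists allows a comparison within the same libraries. There were 16 such pairs, with EPRS paired to both EARS2 and PARS2, and FARS2 to the subunit FARSA and not to FARSB. The cytosolic partner had the lower log2 fold change in 15 of 16 pairs in HCT116 and in 14 of 16 in LOVO, with median differences of -0.52 and -0.82. The exceptions were RARS with RARS2 in both lines (0.36 and 0.55) and FARSA with FARS2 in LOVO (0.54). The FARSB subunit, at -1.03 in LOVO, was below FARS2 at -0.86 on this scale. Without the 1 FPKM added, their log2 ratios were nearly equal, at -1.061 and -1.045. The widest gap in HCT116 was that of AARS and AARS2, at -1.37. In LOVO it was that of EPRS and PARS2, at -2.15, followed by SARS with SARS2 and TARS with TARS2, both at -1.91.

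In level, the cytosolic mRNA was above its mitochondrial partner in all 16 pairs in adherent HCT116 cells, in 14 in HCT116 spheroids, in 15 in adherent LOVO cells and in 12 in LOVO spheroids. The median ratio of FPKM was 5.43 and 4.67 in HCT116 and 8.05 and 4.35 in LOVO. AARS stood 22.7 times above AARS2 in adherent HCT116 cells and 8.80 times in the spheroids, and 31.6 and 10.3 times in LOVO. TARS stood 10.2 and 7.10 times above TARS2 in HCT116 and 15.2 and 4.0 times in LOVO. IARS and IARS2 crossed over in both lines, with ratios of 1.27 and 0.866 in HCT116 and 1.27 and 0.883 in LOVO. So did HARS and HARS2, with 1.48 and 0.948, and 1.12 and 0.810.

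**Figure D4:**
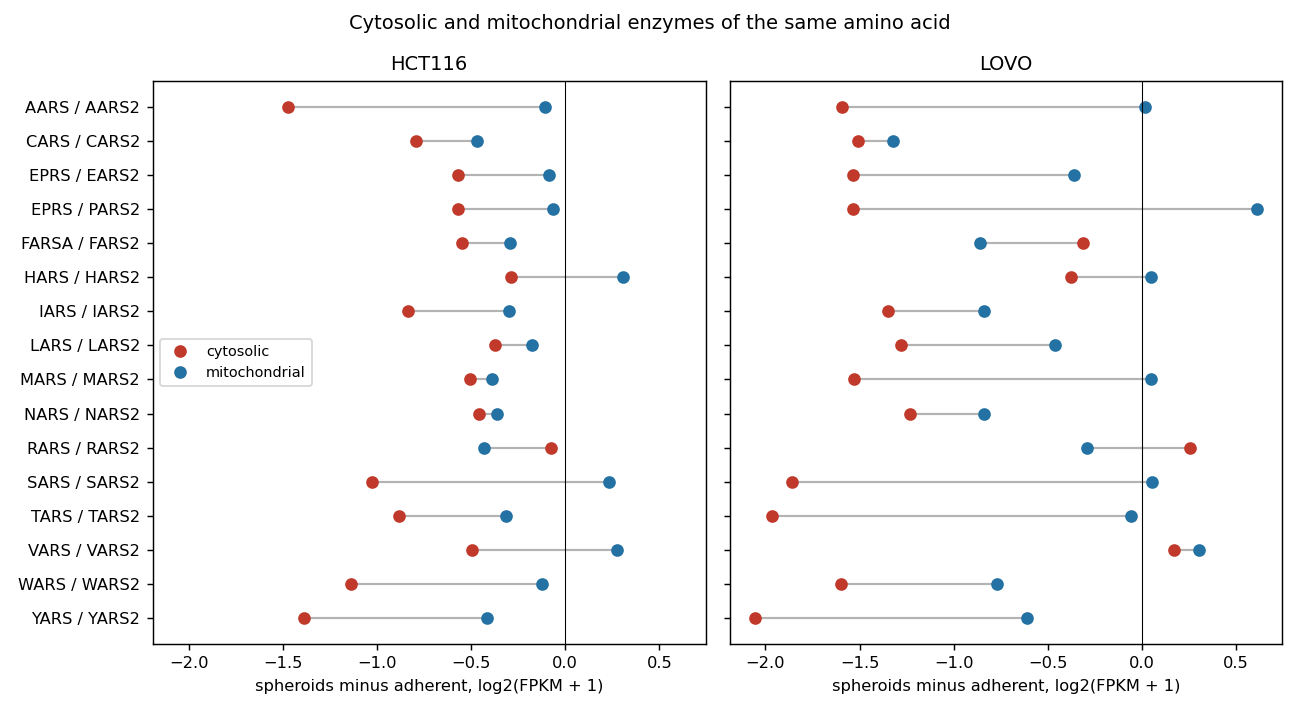
Log2 fold change of spheroids against adherent cells for the cytosolic (red) and mitochondrial (blue) enzyme of each of 16 pairs, joined by a line, in HCT116 on the left and LOVO on the right. The red point lies left of the blue one in 15 pairs in HCT116 and in 14 in LOVO, the exceptions being RARS with RARS2 in both and FARSA with FARS2 in LOVO.

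Members that differed more in HCT116 also tended to differ more in LOVO. Over the 20 cytosolic genes the fold changes of the lines had a Pearson r of 0.763 and a Spearman rho of 0.795, over the 16 mitochondrial genes 0.599 and 0.627, and over all 14429 genes 0.302 and 0.353. These are descriptions across genes of the same 4 libraries, and genes are not independent replicates. The fold change was lower in LOVO than in HCT116 for 15 of the 20 cytosolic genes and 10 of the 16 mitochondrial ones, against 7530 of all 14429 genes. Below 0 in both lines were 18 of the 20 cytosolic genes and 10 of the 16 mitochondrial ones, against 35.1% of all genes.

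With the lines taken as replicates, limma found 0 of the 36 members and 0 of all 14429 genes at an adjusted p under 0.05, with 1 residual degree of freedom. Adjusted p ran from 0.462 to 0.948 over the members. At an unadjusted p under 0.05 there were 14 members, all lower in spheroids, or 38.9%, against 1545 (10.7%) of all genes. Without the cell line as a covariate there were 4 members and 163 genes. In the fit with it they were AARS, CARS, EPRS, FARSB, GARS, IARS, KARS, MARS, NARS, SARS, TARS, WARS, YARS and CARS2. GARS had the largest mean log2 fold change of the 14, at -1.96 (SE 0.34, adjusted p = 0.462 by limma), lower in both lines.

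Other genes of tRNA charging were set beside the synthetases. The 3 scaffold proteins of the multisynthetase complex (AIMP1, AIMP2 and EEF1E1) were below 0 in both lines, against 35.1% of all genes, with medians of -0.39 and -0.35. AIMP2 went from 13.2 to 9.16 FPKM in HCT116 and from 25.8 to 10.5 FPKM in LOVO (-0.48 and -1.22), and AIMP1 from 15.7 to 11.9 and from 20.7 to 16.8 FPKM (-0.38 and -0.29). Of the elongation factors that carry charged tRNA to the ribosome and their partner factors, 6 of 7 could be compared. All 6 were below 0 in both lines, against 35.1% of all genes, with medians of -0.47 and -0.74. EEF1B2, which recharges the factor with GTP, was the lowest, at 230.5 and 128.2 FPKM in HCT116 and 164.2 and 49.1 FPKM in LOVO (-0.84 and -1.72). EEF1A2 was the highest by the mean of the lines (-0.46 and -0.16). EEF1G was listed at 0 in all 4 libraries.

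Genes of tRNA transport and processing had medians nearer to 0. Of 15 genes, 13 were below 0 in each line, against 53.4% and 53.5% of all genes, with medians of -0.19 and -0.45. Below -1 were 0 in HCT116 and 3 in LOVO, against 3.33% and 7.85% of all genes. XPOT, which exports tRNA from the nucleus, went from 25.6 to 20.6 FPKM in HCT116 and from 67.3 to 20.5 FPKM in LOVO (-0.30 and -1.67). TSEN54, a subunit of the splicing endonuclease, was nearly level, at 23.2, 24.3, 11.6 and 12.0 FPKM (0.07 and 0.04). The 19 genes of RNA polymerase III and its factors, which transcribe tRNA genes, had medians of -0.06 and -0.23. Of these, 10 and 15 were below 0 and 0 and 3 below -1, beside the same shares of all genes. The HCT116 count below 0 is near that share. By the mean of the lines GTF3C6 was the lowest (-0.35 and -1.31) and POLR3D the highest (0.04 and 0.70).

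MTFMT, which formylates the initiator methionine in mitochondria, measured 7.88 and 5.90 FPKM in HCT116 and 5.75 and 5.94 FPKM in LOVO (-0.36 and 0.04). Of 3 genes for editing and deacylation of mischarged tRNA, AARSD1 was under the level filter, and DTD1 (-0.84 and -0.24) and DTD2 (-0.19 and -0.91) were both below 0. Of 5 genes of selenocysteine charging and decoding, 3 were below 0 in HCT116 and 4 in LOVO, against 53.4% and 53.5% of all genes. SEPHS2 was the lowest by the mean of the lines (-0.97 and -0.79) and SEPSECS the highest (0.28 and 0.26). TARSL2, a second cytosolic threonine enzyme, was above 0 in both lines where TARS was not. It went from 3.51 to 4.70 FPKM in HCT116 and from 2.36 to 3.59 FPKM in LOVO (0.34 and 0.45).

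The amino acid response list had lower medians than the synthetases. Its 8 genes had medians of -2.0 for HCT116 and -1.61 for LOVO, with 5 and 6 below -1, against 3.33% and 7.85% of all genes. ATF4, the factor that binds the element shown above, went from 290.5 to 149.2 FPKM in HCT116 and from 286.7 to 129.3 FPKM in LOVO (-0.96 and -1.14). DDIT3, a factor induced downstream of it, was lower by more in HCT116 (-4.23) than in LOVO (-1.53). ASNS, the asparagine synthetase, measured 11.9 and 1.42 FPKM in HCT116 and 3.63 and 0.268 FPKM in LOVO (-2.42 and -1.87). TRIB3, a feedback inhibitor, went from 49.7 to 8.01 and from 129.7 to 39.5 FPKM (-2.49 and -1.69). CHAC1 (-2.80 and -4.12) and SESN2 (-1.59 and -2.61) were also below -1 in both lines. The upstream sensor genes were near 0 in comparison, with GCN1 at 0.08 and 0.17 and EIF2AK4 at -0.33 and 0.04.

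**Figure D5:**
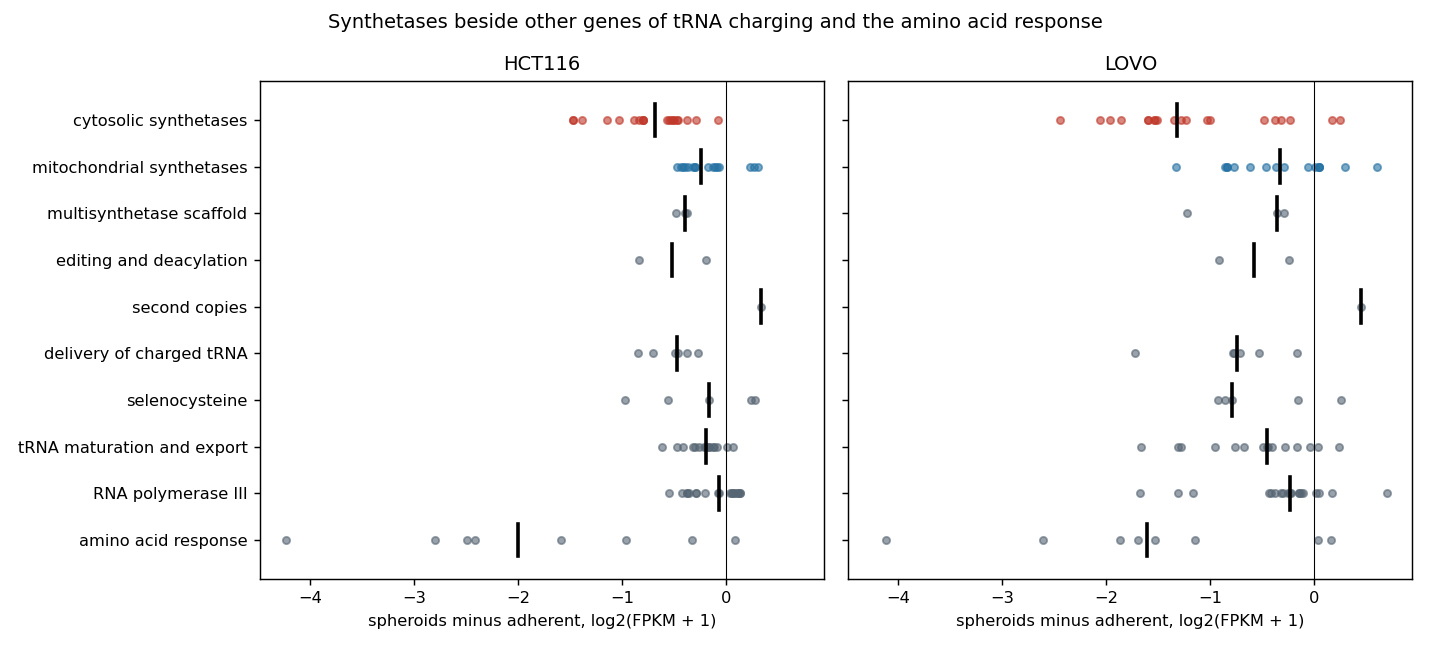
Log2 fold change of spheroids against adherent cells (horizontal) for each compared gene of the synthetase lists and of 8 further lists, HCT116 on the left and LOVO on the right, with a point per gene and a bar at each list's median. The cytosolic synthetases (medians -0.68 and -1.32) lie between the amino acid response (-2.0 and -1.61) and the RNA polymerase III list (-0.06 and -0.23).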

How the data were processed

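Human cell line RNA was sequenced as 4 libraries (SMARTER mRNA-seq kit), 1 per condition. The authors deposited 1 FPKM value and a gene length for each gene and library. The aligner and counter are not given in the sources used here. The submitters' processing notes list GRCm38 and mm10, mouse builds, yet all 58735 gene IDs are in GENCODE 29 (GRCh38), 58724 with the same start and end, and the gene length equalled the exonic bases for all 36 members. FPKM times length gave whole reads (within 0.01 of a read) for 100% of values above 0, used for counting intervals (95%, exact Clopper-Pearson, covering counting error only). The intervals use the library sizes behind the FPKM. Genes with a mean of at least 1 FPKM were compared as log2(FPKM + 1), with a fold threshold of 1. No replicates exist within a line. Across lines, limma 3.58.1 (R 4.3.3) was fitted to all genes compared, with cell line as covariate and Benjamini-Hochberg adjustment. Steps were tested on simulated data. Named are all members and, of each further list, genes past the threshold in both lines or else its highest and lowest by mean, ATF4, DDIT3, ASNS and TRIB3 always, and small counts in full. EEF1E1, EEF1G, AARSD1, GCN1 and EIF2AK4 were added after their values were seen. The members and lists were chosen with earlier results of these data known. The list of partners of mitochondrial charging is not reported here as a list.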

Additional observations from a re-analysis of the deposited data

Results flagged for a closer look

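Several genes differed in opposite directions in the cell lines, and the difference between the lines was not tested, as each rests on 4 libraries. The log2 fold change in LOVO was above that in HCT116 by 0.33 for RARS, 0.67 for VARS, 0.12 for AARS2, 0.44 for MARS2 and 0.68 for PARS2 among the synthetases, and by 0.40 for MTFMT among their partners. The sign was positive in LOVO and negative in HCT116 for all 6. Only the members and the further genes named by the rule given above were searched. Other genes of the further lists had opposite signs in either direction, so the shared direction holds for the genes searched. EIF2AK4, named outside the rule, had opposite signs too (-0.33 in HCT116 and 0.04 in LOVO). Both counting intervals lay away from 0 for VARS alone of the 5 synthetases. No group had the 4 samples needed to look for a sample far from the others.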

How the results depend on the processing

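The limma fit paired each spheroid library with the adherent library of its line, no replicate numbers allowed another pairing, and no replicate could be left out with 1 library per condition. At a fold threshold of 2 the members past it numbered 2 in LOVO, all lower, 0 in HCT116 and so 0 in both. Of all genes 0.943% were lower and 1.81% higher in LOVO, and 0.506% and 0.201% in HCT116. At a threshold of 0.5 there were 14 in HCT116, all lower (13.6% of all genes were). In LOVO there were 21, 20 of them lower (25.04%) and 1 higher (20.02%). In both lines there were 12, and the share of all genes past 0.5 in both was not computed. In TPM the cytosolic median in LOVO was -1.14 and the mitochondrial one -0.16, while the median of all genes in LOVO moved from -0.06 to 0.10. Under the other pseudocounts, filters and scalings the members past the threshold numbered 4 to 5 in HCT116 and 13 to 17 in LOVO, and limma called 0 under each. Those members were all lower. Of all genes 0.999% to 5.88% were below -1 in HCT116 under these settings, and 2.15% to 11.7% in LOVO. The count of 17 came with the smaller pseudocounts, where 11.1% and 11.7% of all genes were below -1 in LOVO. SARS was the gene lost in HCT116, and so in both lines, when values were centred on the median (-0.99). Members at an unadjusted p under 0.05 in limma numbered 14, but 4 (of 163 genes) with no covariate for the cell line and 10 with no filter on low values. For 519 of 568 values of single genes under alternatives, the move from the main value was smaller than 0.5 times the width of the counting interval. For 49 it was not, and none of the called ones changed sign. Settings that change only which genes are kept leave each gene's value as it was, so their values are among the 519 by construction. TARS2 in LOVO was the only one of 72 values of a member in a line to change sign, in TPM. Low counts limit SARS2, FARS2, WARS2 and PARS2.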
